A study of Mus musculus with 2 samples.

Results

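The genes described here encode the laminins, the other core glycoproteins of basement membranes and nearby matrix, and the receptors that hold cells to them. The members were taken from the deposited gene tables by symbol, as every protein-coding laminin chain, integrin α or β subunit, nidogen, perlecan (Hspg2), fibronectin (Fn1), dystroglycan (Dag1), tenascin C or R (Tnc, Tnr) and Sparc. They came to 45 of the 43346 genes in the tables, and none was chosen by its level. RNA was measured by total RNA-seq in the midbrain of embryonic day 11.5 mice of strain B6NCrl, with no treatment and no altered allele given in the labels. The 2 libraries form 1 group, and each is a separate pool of embryos of mixed sex, 109 in replicate 1 and 88 in replicate 2. Because each is a pool of whole dissected midbrain, a gene that is low because few cells hold it cannot be told apart from one that is low in every cell.

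A basement membrane is a thin sheet of matrix that underlies epithelia and surrounds blood vessels. Its laminins are cross-shaped trimers of 1 α, 1 β and 1 γ chain, which polymerise on the cell surface and are tied to the collagen IV network by nidogens and perlecan. Cells bind the sheet through integrins, which are pairs of an α and a β subunit, and through dystroglycan. In the embryonic brain the sheet lies under the pia, where the end feet of neuroepithelial and radial glial cells attach to it.

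The gene tables held 41760197 and 49256468 expected counts in replicates 1 and 2, and 38884247 and 45975100 of these fell on genes. The members together took 0.207% and 0.210% of the counts on genes. The midbrain gene Otx2 had 170 ± 1.30 TPM (SD, n = 2), En1 had 5.615 ± 0.955 TPM and the hindbrain gene Hoxa2 had 0.21 and 0.12 TPM. Levels are given as deposited TPM, a relative abundance scaled to transcript length, so that genes can be set side by side. They are written with replicate 1 first, and a mean is followed by its SD over the 2 libraries (n = 2).

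Of the 45 members, 29 (64.4%) reached 1 TPM in both libraries, the level called detected here, and the other 16 were under 1 TPM in both. The share among all 21474 protein-coding genes was 58.2%. The members' median was 3.55 TPM and that of protein-coding genes 3.455 TPM, while detected members had a median of 12.2 TPM and detected protein-coding genes 18.5 TPM. At the top, 2 members were above 100 TPM in both libraries and 15 above 10 TPM. The share of members detected was therefore near that of protein-coding genes.

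**Figure D1:**
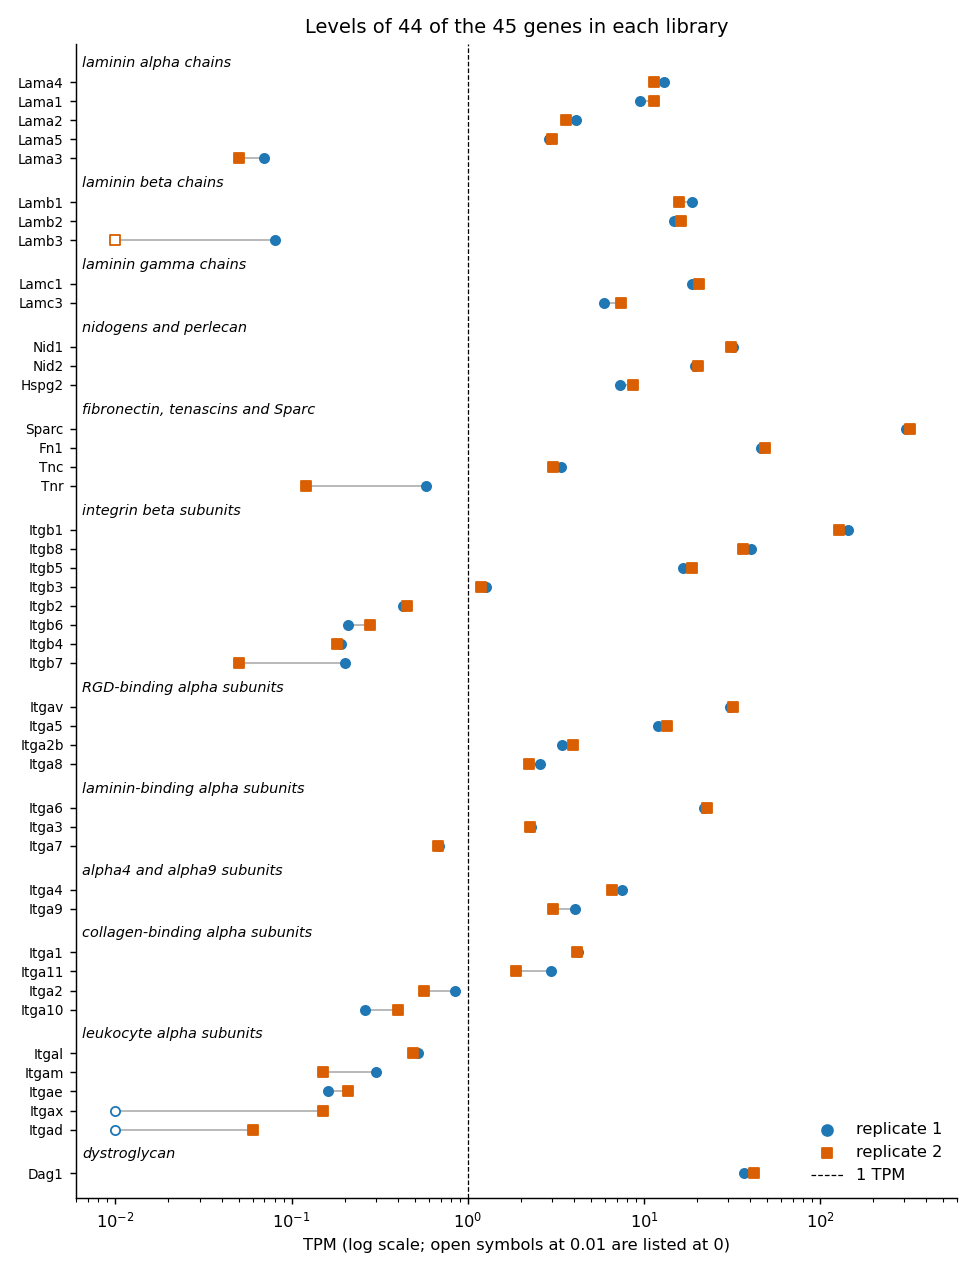
Level of 44 of the 45 genes in TPM on a log axis, grouped by role, with a circle for replicate 1, a square for replicate 2 and a dashed line at 1 TPM. Sparc and Itgb1 stand above 100 TPM in both libraries, and the leukocyte α subunits and the chains Lama3 and Lamb3 lie under 1 TPM.

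Among the laminin chains, 8 of 11 were detected, and Lama3 and Lamb3, chains of the laminin of skin and other surface epithelia, were not. The α chains decide which receptors a laminin binds. Lama4, an α chain of vessel basement membranes, had 13.0 and 11.35 TPM. Lama1, the α chain of an early embryonic laminin also found under the neuroepithelium, had 9.51 and 11.4 TPM. The deposited uncertainty intervals of Lama4 and Lama1 lay apart in replicate 1 and overlapped in replicate 2, so their order is not settled. Lama2, an α chain known from muscle and nerve, had 4.09 and 3.59 TPM, and Lama5, an α chain of many epithelial basement membranes, had 2.89 and 3.02 TPM. Both lay below Lama1, which was 2.67-fold above Lama2 and 3.44-fold above Lama5 on the TPM + 0.1 scale. Lama3 had 0.07 and 0.05 TPM, from 10 and 14 counts.

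Of the β chains, Lamb1 (chr12:31265234-31329644 on mm10) had 18.65 and 15.7 TPM. Lamb2 (chr9:108479736-108490530), which takes the place of Lamb1 in laminins of vessels and synapses, had 14.8 and 16.3 TPM. Lamb1 was higher in replicate 1 and Lamb2 in replicate 2, and their intervals overlapped. Lamb3 had 10 counts in replicate 1 and 0 in replicate 2. Of the γ chains, Lamc1 (chr1:153218922-153332786), which is part of most laminins, had 18.8 and 20.4 TPM. Lamc3 had 5.91 and 7.37 TPM, and Lamc1 was 2.93-fold above it.

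The summed levels of the 3 chain types were close to each other. The α chains summed to 29.5 ± 0.127 TPM, the β chains to 32.7 ± 1.11 TPM and the γ chains to 26.5 ± 2.30 TPM. Within them Lama4 took 41.3% ± 3.83 of the α chains and Lama1 35.4% ± 4.66, Lamb1 took 52.4% ± 4.59 of the β chains, and Lamc1 took 73.9% ± 2.17 of the γ chains. Deposited gene levels also hold transcripts that do not code for a whole chain. An alternative chosen after seeing the data therefore kept only transcripts that the annotation gives as protein-coding from start to stop, called complete coding transcripts below. By these the sums were 20.8 ± 1.26 TPM for α, 21.6 ± 1.56 TPM for β and 17.5 ± 1.19 TPM for γ chains.

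**Figure D2:**
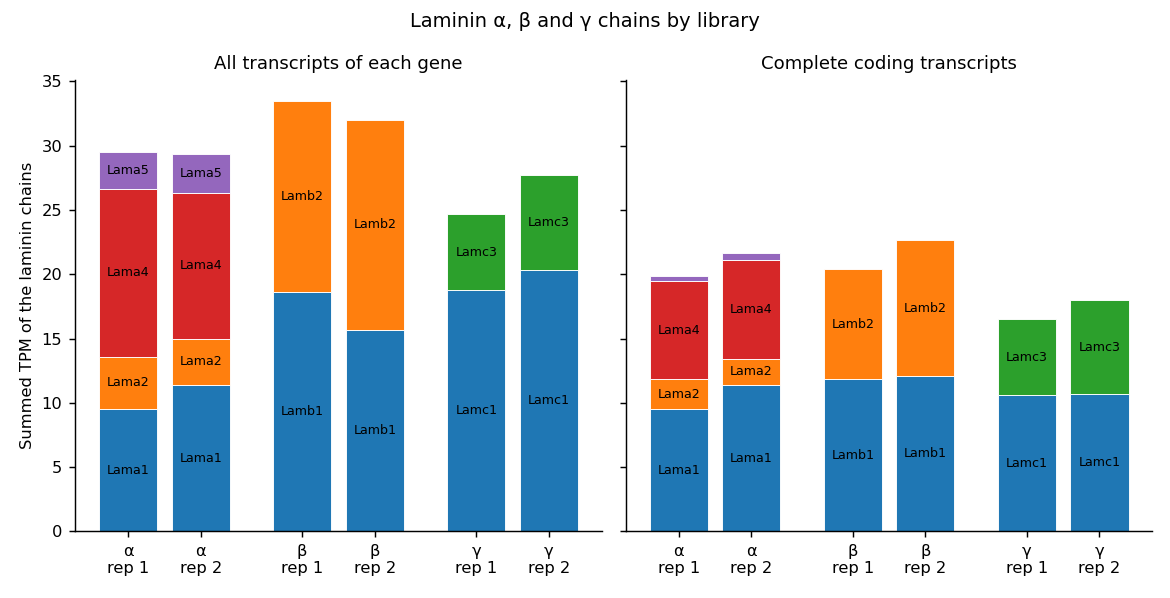
Summed TPM of the laminin α, β and γ chains in each library, stacked by gene for the 8 detected chains, for all transcripts on the left and complete coding transcripts on the right. The 3 chain types reach similar heights in both panels, and the band of Lama5 nearly disappears on the right, where Lama1 is the tallest α band.

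Complete coding transcripts changed the picture of the α chains. Lama5 went from 2.955 TPM as a gene to 0.48 ± 0.0849 TPM, because 3 processed transcripts of 451 to 734 bases held the rest, and Lama5 was no longer detected. Its full-length transcript of 11388 bases nevertheless held 80.9% and 85.2% of the gene's counts. Lama4 went from 12.2 to 7.645 ± 0.0778 TPM, since the retained-intron transcript Lama4-207 of 511 bases held 4.71 and 3.03 TPM. This short transcript rested on 52.0 and 40.0 counts, and the complete coding transcript held 92.3% and 94.6% of the counts of Lama4. Lama1, which has 1 annotated transcript, stayed at 10.45 TPM and became the leading α chain with 50.1% ± 3.36. It was then 18.2-fold above Lama5 and 4.61-fold above Lama2. Lamc1 went from 19.6 to 10.6 ± 0.0707 TPM, where the partial transcript Lamc1-204 had held 8.10 and 9.54 TPM. The complete coding transcript of Lamc1 held 87.9% and 86.1% of its counts. Lamc3 stayed at 6.60 ± 0.976 TPM, so that Lamc1 was 1.61-fold above it by complete coding transcripts and took 60.8% ± 3.72 of the γ chains.

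Nidogen 1 and nidogen 2, which link laminin to collagen IV, were both detected, and Nid1 had a higher TPM than any laminin chain in both libraries. Nid1 (chr13:13437551-13512269) had 31.9 and 31.2 TPM and Nid2 (chr14:19751265-19811787) 19.4 and 20.2 TPM. Nid1 was 1.59-fold above Nid2, with intervals apart in both libraries. Each has 1 annotated transcript. Nid2 overlaps Rtraf on the opposite strand, which had 8269 and 9895 counts against 2487 and 3099 for Nid2, with the use of strand in counting not given in the sources used here. Hspg2, which encodes perlecan, a very large heparan sulfate proteoglycan, had 7.32 and 8.66 TPM and lay at 0.255 of the level of Nid1. The noncoding transcript Hspg2-202 of 820 bases held 2.63 and 3.12 TPM of this. By complete coding transcripts Hspg2 stood at 5.115 ± 0.601 TPM, or 0.164 of the level of Nid1. Those transcripts held 97.2% of the counts of Hspg2 in both libraries.

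Sparc, a collagen-binding glycoprotein secreted into matrix, was the highest of all 45 members. It had 306 and 323 TPM from 13773 and 16606 counts. It was 6.61-fold above fibronectin, with ratios of 6.62 and 6.61 in the 2 libraries. Its main coding transcripts, Sparc-202 and Sparc-201, had 134.89 and 128.61 TPM and 84.9 and 86.35 TPM, while the retained-intron transcript Sparc-205 held 85.5 and 107 TPM. By complete coding transcripts Sparc stood at 217 ± 3.39 TPM, remained first and was 10.3-fold above Fn1. Those transcripts held 89.2% and 86.7% of the counts of Sparc.

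Fibronectin is a matrix glycoprotein that cells bind through integrin α5β1 and αv integrins at a site coded by Arg-Gly-Asp (RGD), and it is spliced in ways that mark embryonic and regenerating tissue. Fn1 (chr1:71585520-71653200, minus strand) had 46.2 and 48.75 TPM and ranked 3 of the 45. The leading Fn1 transcript by TPM was not a coding one, but Fn1-202, a retained-intron transcript of 4022 bases with 17.6 and 19.3 TPM. By expected counts Fn1-201 led, with 3506 and 3470 against 1852 and 2419 for Fn1-202. Complete coding transcripts summed to 19.6 and 22.6 TPM and held 65.3% and 67.5% of the gene's counts. Of these, Fn1-201, the form of 8315 bases with both alternative repeats EIIIB and EIIIA, had 15.9 and 13.2 TPM, and Fn1-214, which lacks EIIIB, had 1.43 and 6.49 TPM.

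The exons behind these forms are printed as read from the GENCODE M21 transcripts on mm10, minus strand, 5′ to 3′, because the splice results turn on them. EIIIB is the exon at chr1:71613763-71614035 and EIIIA that at chr1:71603660-71603929. Capitals in EIIIA mark the codons of the stretch through which this repeat is known to bind integrins α4β1 and α9β1. The window at chr1:71606734-71606766 holds the RGD site, with its codons in capitals.
Fn1 EIIIB: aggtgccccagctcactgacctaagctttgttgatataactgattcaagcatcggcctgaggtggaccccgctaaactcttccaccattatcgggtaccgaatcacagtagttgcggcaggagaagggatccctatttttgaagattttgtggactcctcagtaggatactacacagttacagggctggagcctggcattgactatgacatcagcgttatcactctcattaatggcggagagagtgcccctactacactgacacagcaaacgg
Fn1 EIIIA: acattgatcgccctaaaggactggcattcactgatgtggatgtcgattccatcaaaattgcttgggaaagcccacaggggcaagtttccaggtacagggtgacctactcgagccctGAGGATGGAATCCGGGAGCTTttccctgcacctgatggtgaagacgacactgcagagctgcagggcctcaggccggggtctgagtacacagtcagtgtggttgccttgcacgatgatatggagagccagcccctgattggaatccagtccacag
Fn1 RGD site: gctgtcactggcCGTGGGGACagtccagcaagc

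Of the 7 complete coding Fn1 transcripts that span these exons, 4 hold EIIIA and 1 holds EIIIB. EIIIA was in 99.0% and 98.6% of their summed TPM in replicates 1 and 2. EIIIB was in 87.2% and 60.9%, so the libraries were further apart in EIIIB than in EIIIA. The interval of Fn1-201 was 14.03 to 16.7 TPM in replicate 1 and 11.4 to 14.9 TPM in replicate 2, and these overlap. That of Fn1-214 was 0.0146 to 2.57 TPM and 3.33 to 8.31 TPM, and these do not. With posterior mean TPM the EIIIB shares were 85.9% and 61.5%. The integrin α subunits known to bind the printed sites were detected, among them Itga5 at 11.97 and 13.6 TPM, Itga4 at 7.53 and 6.58 TPM and Itga9 at 4.05 and 3.05 TPM.

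Codons for Arg-Gly-Asp in frame, in the longest complete coding transcript, were found in 9 of the 18 matrix members (laminins, nidogens, perlecan, fibronectin, tenascins and Sparc). Among these were Fn1, Nid1, Nid2, Hspg2, Lama1, Lama4 and Lama5. Among all 21732 genes searched the share was 7.20%, and among the 1681 with at least 3504 coding bases it was 23.9%. A match is a description of the sequence and no evidence of binding.

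Tenascin C, a matrix glycoprotein of proliferating and migrating tissue, was far lower than fibronectin. Tnc had 3.38 and 3.05 TPM, and Fn1 was 14.4-fold above it, or 6.41-fold by complete coding transcripts. Tenascin R, which belongs to the more mature nervous system, had 0.58 and 0.12 TPM from 43 and 27.1 counts. Tnc has an alternatively spliced block of fibronectin type III repeats, and 1 repeat at chr4:63984460-63984732 (minus strand) was in Tnc-203 alone of the 3 full coding forms compared. Tnc-203 had 1.03 and 1.15 TPM, or 31.3% and 37.7% of these forms, and Tnc-204, without that repeat, had 2.26 and 1.59 TPM. The intervals of the 2 transcripts overlapped in replicate 2, at 0.719 to 1.60 TPM and 0.807 to 1.93 TPM. The exon is shown so that it can be told from the fibronectin repeats.
Tnc extra repeat: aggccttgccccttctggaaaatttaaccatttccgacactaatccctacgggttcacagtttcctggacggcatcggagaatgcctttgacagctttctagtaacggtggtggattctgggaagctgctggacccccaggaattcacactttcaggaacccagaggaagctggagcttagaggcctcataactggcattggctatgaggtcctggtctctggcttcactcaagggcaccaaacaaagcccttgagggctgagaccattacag

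**Figure D3:**
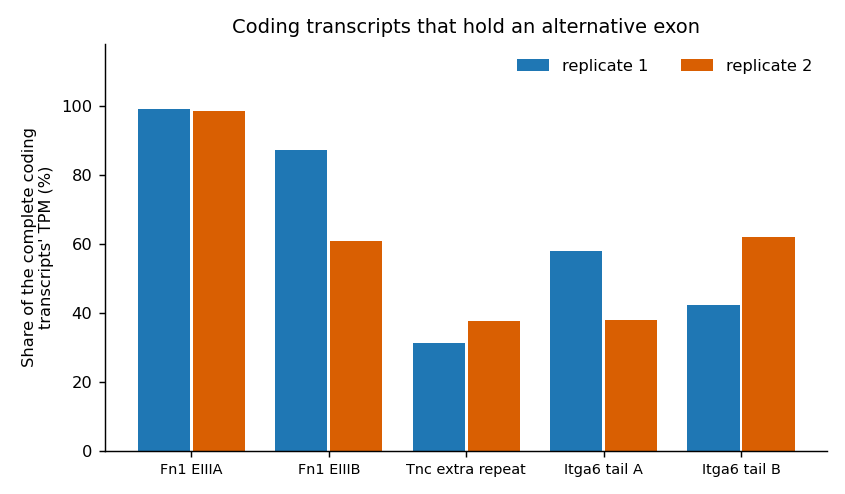
Share of the TPM of complete coding transcripts that hold each alternative exon, in percent, with 1 bar for each library. EIIIA is near 99% in both libraries, whereas EIIIB is at 87.2% in replicate 1 and 60.9% in replicate 2, and tail A of Itga6 is the taller in replicate 1 and tail B in replicate 2.

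The integrin β subunits were led by Itgb1, the β chain shared by most receptors for laminin, collagen and fibronectin. Itgb1 (chr8:128685654-128733200) had 143 and 127 TPM and took 69.8% ± 1.27 of the summed β subunits. It was 3.41-fold above Dag1, and 99.8% and 99.9% of its TPM lay in the 1 complete coding transcript, Itgb1-201. Itgb8, which pairs with αv to activate latent TGF-β, a function known from neuroepithelial cells next to brain vessels, had 40.2 and 36.5 TPM. Itgb5, another partner of αv, had 16.7 and 18.7 TPM, and Itgb8 was 2.16-fold above it. Itgb3, the partner of αv and αIIb, was the lowest detected member at 1.27 and 1.19 TPM.

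The remaining 4 β subunits were under 1 TPM. Itgb4, the partner of α6 in hemidesmosomes, had 0.19 and 0.18 TPM, and Itgb1 was 474-fold above it on the TPM + 0.1 scale, which understates the ratio of a low gene. Itgb6, the epithelial partner of αv, had 0.21 and 0.28 TPM. The leukocyte β subunits Itgb2 and Itgb7 had 0.43 and 0.45 TPM, and 0.20 and 0.05 TPM. Itgb7 rested on 14 and 4 counts.

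Of the α subunits that bind RGD sites, Itgav (chr2:83724397-83806916) had 30.75 and 32.0 TPM. Itga5, the classical fibronectin receptor with β1, had 11.97 and 13.6 TPM, and Itgav was 2.45-fold above it. This order was reversed by complete coding transcripts, with Itga5 1.19-fold above Itgav, and their separation by intervals was not tested in this setting. Itgav-205, a partial transcript of 463 bases, held 17.7 and 18.85 TPM, and by complete coding transcripts, which leave out this and other partial and noncoding ones, Itgav stood at 10.7 ± 0.120 TPM, below Itga5 at 12.8 ± 1.12 TPM. The complete coding Itgav transcripts nevertheless held 89.0% and 88.9% of the gene's counts. Itga8, an RGD receptor known from kidney and mesenchyme, had 2.55 and 2.21 TPM. Itga2b, the platelet αIIb chain, had 3.44 and 3.97 TPM and was 2.86-fold above its partner Itgb3. By its 1 complete coding transcript it stood at 1.63 ± 0.113 TPM, which was 49.7% and 39.0% of the gene's TPM, and 1.30-fold above Itgb3. That transcript held 82.4% and 78.4% of the counts of Itga2b.

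Of the laminin-binding α subunits, Itga6 was the highest. Itga6 (chr2:71745616-71858416) had 22.0 and 22.8 TPM and took 88.4% ± 0.342 of the 3. Itga3, which binds laminins that hold the α3 or α5 chain, had 2.27 and 2.24 TPM, and Itga7, the laminin receptor of muscle, had 0.69 and 0.68 TPM. Itga6 is made with 1 of 2 cytoplasmic tails, A or B, each coded by an exon of its own. The 2 exons are printed from GENCODE M21 on mm10, plus strand, at chr2:71853534-71853641 for tail A and chr2:71855854-71856015 for tail B, with the stop codon in capitals.
Itga6 tail A: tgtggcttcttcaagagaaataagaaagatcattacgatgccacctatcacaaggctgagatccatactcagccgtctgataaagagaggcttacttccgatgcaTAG
Itga6 tail B: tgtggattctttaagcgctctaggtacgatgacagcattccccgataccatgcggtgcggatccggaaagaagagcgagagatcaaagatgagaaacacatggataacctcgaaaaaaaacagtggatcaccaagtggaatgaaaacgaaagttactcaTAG

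Itga6-201, with tail A, had 5.71 and 4.33 TPM, and Itga6-202, with tail B, had 4.16 and 7.07 TPM. Tail A thus took 57.9% and 38.0% of the 2 forms. The intervals of Itga6-201 and Itga6-202 overlapped in both libraries, at 3.74 to 7.78 TPM against 1.86 to 6.06 TPM in replicate 1 and at 2.53 to 7.06 TPM against 3.81 to 8.58 TPM in replicate 2. Neither tail was separated from the other. The noncoding transcript Itga6-203 led the gene by TPM with 10.6 and 9.5 TPM, so complete coding transcripts of Itga6 came to 10.6 ± 1.08 TPM. Those complete coding transcripts held 57.9% and 63.6% of the gene's counts. In Itga3 the leading transcript, Itga3-201, held 58.1% and 100% of the gene.

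The α4 and α9 subunits bind the EIIIA stretch printed above, and α4 also VCAM1 on vessels. Itga4 was 1.97-fold above Itga9. Among the collagen receptors, Itga1 had 4.20 and 4.17 TPM and Itga11, known from fibroblasts, had 2.96 and 1.88 TPM. Itga2, the neighbour of Itga1 on chromosome 13 at a distance of 21 kb, had 0.84 and 0.56 TPM, and Itga10 had 0.26 and 0.40 TPM. Itga1 was 5.44-fold above Itga2. The 18 α subunits summed to 94.8 ± 0.410 TPM and the 8 β subunits to 193 ± 12.5 TPM. The 12 α subunits able to pair with β1 summed to 90.1 ± 0.0212 TPM, below Itgb1 alone in both libraries.

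All 5 leukocyte α subunits were under 1 TPM. Itgal had 0.52 and 0.49 TPM, Itgam 0.30 and 0.15 TPM and Itgae 0.16 and 0.21 TPM. Itgax had 0 and 19 counts and Itgad 0 and 1 count. A count of 0 allows up to 0.0772 CPM (counts scaled to the total on genes) in replicate 1 and 0.0653 CPM in replicate 2, by counting error only. Itgam, Itgax and Itgad lie side by side on chromosome 7, with 11.1 kb from Itgam to Itgax and 3.72 kb from Itgax to Itgad. Itgae overlaps Haspin on the opposite strand, which had 1044 and 1114 counts against 16 and 25 for Itgae. In all, 18 members are overlapped by a gene on the opposite strand.

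Dystroglycan, the receptor for laminin that is not an integrin, ranked 4 of the 45. Dag1 (chr9:108204634-108263958) had 37.0 and 42.2 TPM, and its intervals lay apart, 35.1 to 38.2 TPM in replicate 1 and 40.0 to 43.5 TPM in replicate 2. Its complete coding transcripts held 94.0% and 90.8% of this. Dag1 was 4.91-fold above perlecan, a ligand of its sugar chains. Those chains are added by a set of glycosyltransferases and their helpers, and all 17 listed genes of this pathway that matched the tables were detected, with a median of 18.2 TPM. The highest were the mannose donor synthase subunits Dpm2 (81.6 ± 3.995 TPM), Dpm3 (65.2 ± 2.62 TPM) and Dpm1 (61.1 ± 8.70 TPM). Of 14 genes of the dystrophin complex, which joins dystroglycan to the cytoskeleton, 10 were detected, with a median of 2.84 TPM. They were led by Sgce (50.7 ± 3.23 TPM), Dtnb (24.3 ± 1.52 TPM) and Sgcb (16.7 ± 1.47 TPM). The muscle sarcoglycan Sgca had 0 counts in at least 1 library.

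Other basement membrane genes and the intracellular partners of integrins were also present. Of 21 further basement membrane genes, 17 were detected, and the median was 6.76 TPM. They were led by the fibulin gene Fbln1 (122 ± 7.57 TPM), the collagen IV chain Col4a1 (67.2 ± 3.09 TPM) and agrin, Agrn (49.7 ± 3.51 TPM). Of 21 genes of the integrin adhesion complex, 19 were detected, and the median was 21.3 TPM. The highest were the integrin-linked kinase Ilk (206 ± 0.750 TPM), its partner Lims1 (64.4 ± 2.28 TPM) and the focal adhesion kinase gene Ptk2 (63.5 ± 1.69 TPM). The median of all protein-coding genes, 3.455 TPM, was below those of these 2 lists and of dystroglycan glycosylation, and above that of the dystrophin complex.

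Levels were compared for 36 pairs of members, and 31 (86.1%) were separated, meaning that their deposited intervals lay apart with the same gene on top in each library. Among all 990 pairs of members 84.8% were separated, so the share is near that of any pair. The 5 pairs not separated were Lamb1 with Lamb2, Lamb1 with Lamc1, Itgb2 with Itgb7, Itgal with Itgam and Itgae with Itgb7. Between neighbours in the order of mean TPM, 12 of 44 steps were separated, and 11 of these followed the order of the means. The 11 were Sparc above Itgb1, Itgb1 above Fn1, Fn1 above Dag1, Itgb8 above Nid1, Itgav above Itga6, Itga6 above Nid2, Lamb2 above Itga5, Lama1 above Hspg2, Lamc3 above Itga1, Itga3 above Itgb3 and Itgb3 above Itga2. The other was Lama3 and Lamb3, whose intervals ran against their TPM. Deposited intervals lie around a posterior mean, and the TPM fell outside its interval in a library for 8 members, of which Itgb1 was the 1 detected.

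**Figure D4:**
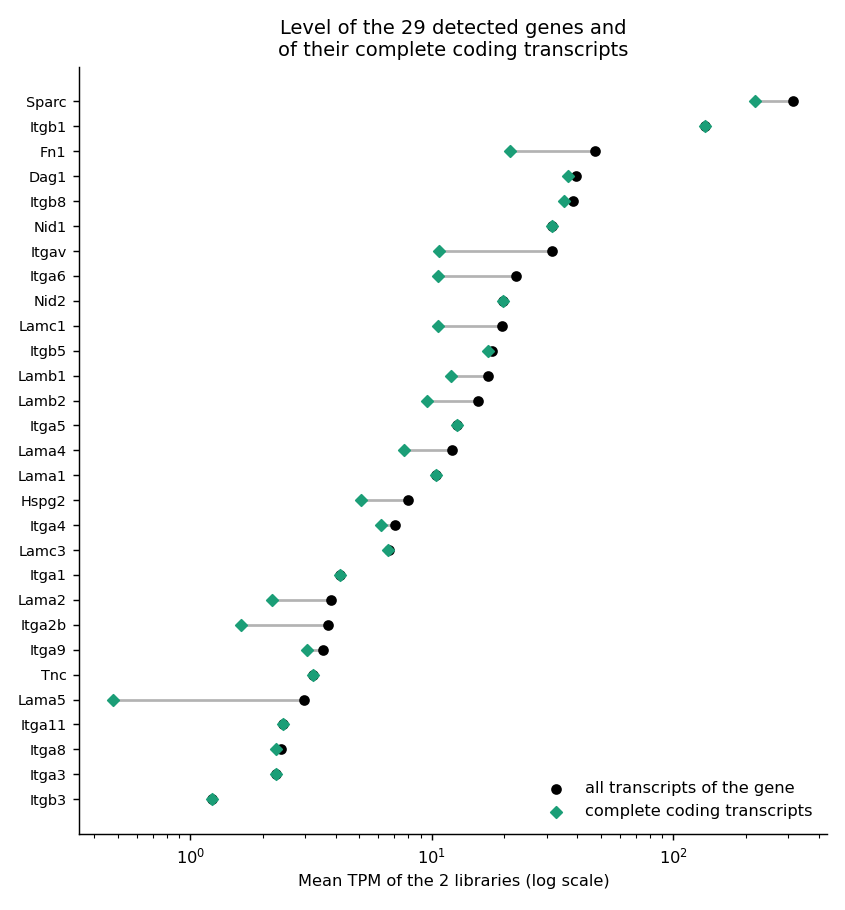
Mean TPM of the 2 libraries on a log axis for the 29 detected genes, as a black point for all transcripts and a green diamond for complete coding transcripts, joined by a line. The line is longest for Lama5, and for Itgb1, Nid1, Nid2, Itga5 and Lama1 the marks coincide.

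Of the 29 detected members, 5 have 1 transcript in the tables. In each of the other 24, both libraries had 1 leading transcript in common, by share of the gene's TPM. For 20 of these it was a complete coding transcript, and for Fn1, Itgav, Itga6 and Lama5 it was not. These 4 genes had a mean TPM 2.25-fold, 2.93-fold, 2.10-fold and 6.16-fold above that of their complete coding part. In 15 of the 29, complete coding transcripts held at least 90% of the TPM in both libraries. They detected 28 of the 45 members, Lama5 being the 1 lost.

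Replicate 2 was set against replicate 1 to see how far the 2 libraries differ, each from its own pool of embryos. This compares 2 libraries, not conditions, and uses a two-sided exact binomial test on rounded expected counts with Benjamini-Hochberg adjustment over 17148 genes. Members were tested from 20 counts over both libraries. Of the 41 tested, 30 (73.2%) were within 1.2-fold, as were 72.9% of all genes tested. The median log2 ratio was -0.01 for members and 0.01 for all genes tested. Calls took both a 2-fold change and an adjusted p below 0.05, which 2.80% of genes tested had. Among the 41 members 1 was called, by the exact binomial test.

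Without the fold minimum, 16 of the 41 members passed, 9 higher and 7 lower in replicate 2, where 34.9% of all genes tested passed, 3082 higher and 2908 lower. Scaled to spike-in counts instead, 14 members were higher and 4 lower, and over all genes 4827 and 1695. Without spike-in scaling, the smallest adjusted p among the members, 1.01e-18 by the exact binomial test, was that of Itgb1. Itgb1 was lower in replicate 2, with a log2 ratio of -0.16. Intervals did not overlap for 8 members (19.5%), near the 20.0% of all genes tested. Of these, 5 were higher (Sparc, Dag1, Itga5, Lama1, Lamc3) and 3 lower (Itgb1, Itgb8, Itga11). Sparc was barely apart, with an upper bound of 308.97 TPM in replicate 1 and a lower bound of 309.18 TPM in replicate 2. Its log2 ratio was 0.02, with an adjusted p of 0.327 by the exact binomial test. By complete coding transcripts it had 219.8 and 215.0 TPM, lower in replicate 2. Itga11 had 386 and 293 counts and a log2 ratio of -0.64. With edgeR's exact test and an assumed coefficient of variation of 0.1 between pools, 0 members were called, and the smallest adjusted p of any member was 0.259, for Itga11. Itgb7, Itgax, Lamb3 and Itgad had too few counts to be tested.

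**Figure D5:**
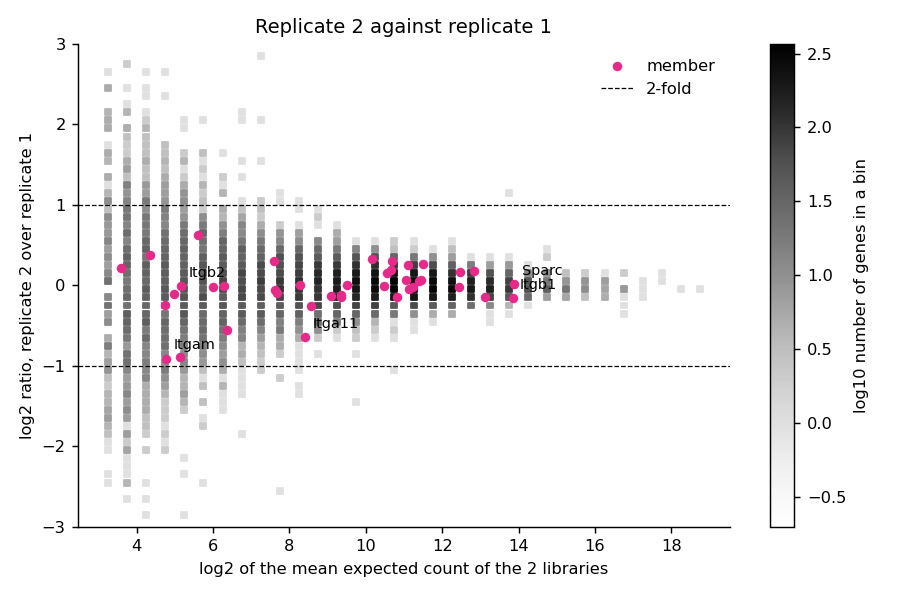
Log2 ratio of replicate 2 to replicate 1 against the log2 of the mean expected count, with grey squares for bins of all genes tested and pink points for 40 members, and dashed lines at 2-fold. The members lie in the grey cloud and narrow with it as counts rise, and Itgb1 and Sparc, at the right, are close to 0. Beyond the vertical range lie 48 genes.

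In the lists around the members, Col4a6, a collagen IV chain, was called, with 101 and 264 counts, a log2 ratio of 1.13 and an adjusted p of 6.30e-11 by the exact binomial test. Of the 21 further basement membrane genes, 12 were higher and 2 lower in replicate 2 at an adjusted p under 0.05 by the exact binomial test without a fold minimum, which 34.9% of all genes tested passed. The integrin adhesion complex had 6 higher and 3 lower, dystroglycan glycosylation 2 and 6, and the dystrophin complex 0 and 3. Scaled to spike-in counts, the same 4 lists had 13 higher and 2 lower, 11 and 1, 7 and 4, and 1 and 1. All genes tested leaned the same way in that scaling, with 4827 higher and 1695 lower, against 3082 and 2908 without it. Marker genes of other cell types were counted first without spike-in scaling. The 12 mesenchymal and meningeal markers had 1 higher and 6 lower, the 8 neuron markers 1 and 5, the 10 neural progenitor markers 4 and 0, and the 11 macrophage markers 0 and 4. The 11 endothelial and the 8 mural markers each had 3 higher and 1 lower, the platelet markers 1 and 0, and the surface epithelium markers 0 and 1. With spike-in scaling the mesenchymal and meningeal markers had 2 higher and 5 lower, neuron 1 and 3, neural progenitor 6 and 0, and macrophage 1 and 3. Endothelial markers then had 5 and 1, mural 3 and 1, platelet 1 and 0, and surface epithelium 1 and 1. The part of these cell types in the differences of the members was not tested.

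Markers of other cell types were measured in the same libraries, since a midbrain dissection holds vessels, blood and the tissue around the brain. All 11 endothelial markers were detected, with sums of 190 and 198 TPM, led by Egfl7, Cldn5 and Esam, and 7 of 8 mural markers with sums of 68.7 and 68.8 TPM, led by Acta2, Notch3 and Pdgfrb. All 12 mesenchymal and meningeal markers were detected, with sums of 772 and 730 TPM, with Col3a1 at 325 ± 16.2 TPM and Lum and Col1a2 next. Of the macrophage markers 10 of 11 were detected, with sums of 96.1 and 98.4 TPM, led by C1qb, C1qc and Tyrobp, beside leukocyte integrins under 1 TPM. Of the platelet markers 7 of 9 were detected, with sums of 86.9 and 96.2 TPM, led by Pf4 (64.8 ± 7.08 TPM), Ppbp and Gp1bb, beside Itga2b and Itgb3. Surface epithelium markers were low, 5 of 8 with sums of 24.75 and 25.4 TPM, led by Krt8, Epcam and Cdh1, beside Lama3, Lamb3 and Itgb4. All 10 neural progenitor markers, led by Vim, Fabp7 and Hes5, and all 8 neuron markers, led by Tubb3, Stmn2 and Gap43, were detected, with sums of 2762 and 2851 TPM and of 1612 and 1593 TPM. None of these markers was at 0 in either library. The part of each cell type in the members' levels was not tested.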

How the data were processed

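Total RNA-seq libraries of 2 pools of midbrain (1 group) were used. Per the labels' protocols, mirVana-extracted RNA above 200 nt was used at 10 ng a library with ERCC spike-ins, and a Smart-seq protocol, which amplifies cDNA, is cited. Reads are therefore not independent molecules, and intervals and limits cover counting error only. Per the submitters' processing notes the assembly was mm10 with annotation M4. With aligner, quantifier and strand use not given in the sources used here, overlapping and antisense genes stay uncertain.

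The columns deposited by the authors are, per the file headers, an expected count (an estimated number of reads), TPM as maximum likelihood and posterior mean values, and FPKM. The authors scaled TPM and FPKM over all rows, spike-ins included, which hold 15.2% and 14.8% of TPM. The deposited bounds of TPM were read as a signal with no fixed total and with a level not given in the sources used here. Transcript shares of a gene are a percent column deposited by the authors.

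Symbols, coordinates and exon sequences came from GENCODE M21 on mm10 by identifier without version, and deposited transcript lengths equalled those of M21 for the exons compared. Of 18 listed dystroglycan glycosylation genes 17 matched, and every symbol of the other lists matched. Spike-ins (96 rows) and 26249 other rows (bare numbers and phiX) entered no total and no test, and the other rows held 1.06e-05% and 2.69e-05% of counts. Ratios used TPM + 0.1. Libraries were compared on expected counts rounded to whole numbers, scaled by TMM factors from edgeR 4.0.16 in R 4.3.3, by a two-sided exact binomial test (double the smaller tail) for genes with 20 or more counts over both libraries, with a prior count of 1 in the log2 ratio. In counts simulated with sampling noise only, 200 of 200 genes changed 3-fold, up or down, were called among 17173, with 1 false call. The changed genes were drawn from those with at least 100 counts over both libraries, so recovery at lower counts was not tested. No test compares conditions. The binomial p-values take in counting error only, so they cannot tell a difference between the 2 pools from one of library preparation. Members, lists, pairs and roles were chosen with earlier results of these data known. Any member could be named, and of each list its 3 highest genes and those called, and some genes that this takes are not reported here. Alternatives included DESeq2 1.42.0 size factors, other scalings, units, pseudocounts and filters, and leaving out each library. Python 3.11.15, numpy 2.4.6, pandas 2.3.3, scipy 1.17.1 and matplotlib 3.10.9 were used.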

Additional observations from a re-analysis of the deposited data

How the results depend on the processing

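The median level of the 45 members, 3.55 TPM, was 4.06 TPM with posterior mean TPM, 4.18 TPM after rescaling without spike-ins, 4.17 TPM from FPKM scaled to the same total and 2.42 TPM with complete coding transcripts only, and 3.05 to 3.44 TPM with 1 library left out. Members detected numbered 19 at 5 TPM, 31 at 0.5 TPM, 28 with complete coding transcripts and 29 under the other alternatives run. Separation of pairs rests on the deposited intervals alone, so posterior mean TPM and other pseudocounts could not change the 31. With 1 library left out, the number of pairs separated was 31 to 33. Of the pair ratios, 2 changed sign with complete coding transcripts, which leave out partial and noncoding ones. That of Itgav to Itga5 went from a log2 ratio of 1.29 for all transcripts to -0.25. That of Lamb1 to Lamc1, a pair not separated, went from -0.19 to 0.17. With complete coding transcripts 17 of the 36 pair ratios moved by over 1.5-fold. Of the 11 roles with several members, 10 kept their leading member with posterior mean TPM, 10 with expected counts, 9 with complete coding transcripts and 9 to 11 with 1 library left out. Without replicate 1, Lama1 led the α chains (38.7%) and Lamb2 the β chains (50.9%). With expected counts, which are not per length, Lama1 led with 55.7%. All 24 leading transcripts were the same under posterior mean shares. Either library alone could not give another result, since the 24 were counted as sharing their leading transcript in both. In the comparison of replicates, 1 member was called under DESeq2, total and spike-in scaling alike. With no filter on counts 4 of 45 members were called (Itgb7, Itgax and Lamb3 among them), beside 651 of 23744 genes. With no fold minimum 16 members were called. There were 0 members called with a summed count of at least 100, where fewer members are tested. With edgeR's exact test at a coefficient of variation of 0.1 there were also 0. Over all genes 481 of 17148 were called, against 82 of 14065 with a summed count of at least 100. Of the 17148, 155 were called with edgeR and 5990 with no fold minimum. No paired analysis was possible because the 2 libraries form 1 group. The complete coding alternative was chosen after seeing the data. With 2 libraries an SD rests on a single difference, and members under 1 TPM rest on 166 counts or fewer in all.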
